A study of Rattus norvegicus with 12 samples.

Results

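The aryl hydrocarbon receptor battery is described here across the livers of 12 male Wistar rats. It comprises the receptor gene Ahr, its partner Arnt, and the target genes Cyp1a1, Cyp1a2, Cyp1b1, Nqo1 and Tiparp. The 7 genes were chosen by name, and every probe set that the platform annotation pairs with 1 of these symbols alone was taken. This gave 9 of the 20826 named probe sets on the array, for 7 of 14217 genes: 2 probe sets each for Ahr and Tiparp and 1 for each other gene. The labels give the rats as 5 weeks old. After 4 days on the purified AIN93G diet, they ate that diet with either 20% maple syrup or 20% of a sugar mix syrup for 11 days, and then fasted for 16 hours. Wistar is an outbred laboratory strain, and no rat carried a named transgene, deletion or drug. By the labels the feeding groups had 7 rats (maple syrup) and 8 rats (sugar mix), and 6 arrays per diet, each labelled as a biological replicate, were analysed here. The number of arrays limits the precision.

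The aryl hydrocarbon receptor is a transcription factor that waits in the cytosol with Hsp90 chaperones and the co-chaperone p23 (gene Ptges3). Planar aromatic compounds, among them combustion products, dioxins, plant indoles and some flavonoids, bind it and send it to the nucleus. There it pairs with Arnt and binds response elements near its target genes. Liver is known for the strong induction of Cyp1a1 by such compounds, from a low level in unexposed animals. Cyp1a2 is made constitutively by hepatocytes, mainly those around the central vein. Tiparp and Ahrr are themselves induced and dampen the receptor.

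The core letters of the response element were looked for in the RefSeq promoter windows, from 250 bases before to 50 bases after each gene's start on build GRCr8. The sites are shown because the receptor is known to bind DNA through elements that hold this core. The table matched 6 of the 7 members by symbol, all but Cyp1a1. The core GCGTG, on either strand, was found in 4 of the 6 windows (Arnt, Cyp1b1, Nqo1 and Tiparp), and in 29.7% of all 33469 windows of 300 bases. The longer form TNGCGTG, which contains the core, was found in Cyp1b1 alone of the 6, and in 4.89% of all windows. Each line gives 1 match from 5′ to 3′ with 12 bases on either side and the core in capitals. A match here is a description and does not show binding. Sequence outside the windows was not searched, so a window without a match does not show that the gene lacks an element.
Arnt, chr2:185686649-185686677, plus strand: ccatggtatgggGCGTGtcttctccccca
Cyp1b1, chr6:21094472-21094500, minus strand: ttaaggggtgggGCGTGaggggcgggacg
Cyp1b1, chr6:21094533-21094561, plus strand, within the longer form: agtagagggatgGCGTGtcgcctctgggg
Nqo1, chr19:52220261-52220289, plus strand: cggaaagatcctGCGTGccacagcctagg
Tiparp, chr2:152063621-152063649, minus strand: cgcctcccgtgcGCGTGcgcctgacagag

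The values are the authors' processed score for each probe set, with levels between 5.57 and 15.21 over the whole table. Levels look like log2 intensities, but animals differed by far less than such intensities do: the median SD of a named probe set over the 12 animals was 7.65e-06. Differences could not be read as log2 ratios, and no fold is given. Differences between the diets are given as Hedges' g, the mean with maple syrup minus the mean with sugar mix in units of the SD between animals, with a 95% interval. Values of single animals are given in the score or in SDs from the mean of the 12 animals for that probe set. Array medians lay between 7.36619 and 7.36632, a gap wider than the range over animals of Arnt, Cyp1b1, both Tiparp probe sets and the dimmer Ahr probe set. Albumin, a hepatocyte marker, had a score of 15.21, at the top of the table. In whole liver, fewer cells of a type and less RNA per cell cannot be told apart.

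No member passed the test between the diets. Of the 9 probe sets, 0 passed limma with Benjamini-Hochberg adjustment over all 20826 probe sets (background 0% called), and each had an adjusted p that rounds to 1. At an unadjusted p of 0.05 in limma, 0 of 9 were counted, against 4.19% of all probe sets. By exact permutation of the animals, 849 of all probe sets had a p under 0.05 before adjustment, none of them a member's. In 7 of the 9 probe sets g was above 0, against 48.7% of all probe sets. The median g was 0.11 for the members and -0.02 over the table. The 95% interval of g left out 0 for 0 of 9, against 4.10% of all probe sets. In 0 of 9 did the diets separate without overlap, against 0.0960% of all probe sets. With 6 rats per diet the intervals of g are wide, from -2.27 to 0.04 for Nqo1 and from -0.53 to 1.61 for the brighter Tiparp probe set, and a p that misses the threshold does not show that the diets are alike.

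**Figure D1:**
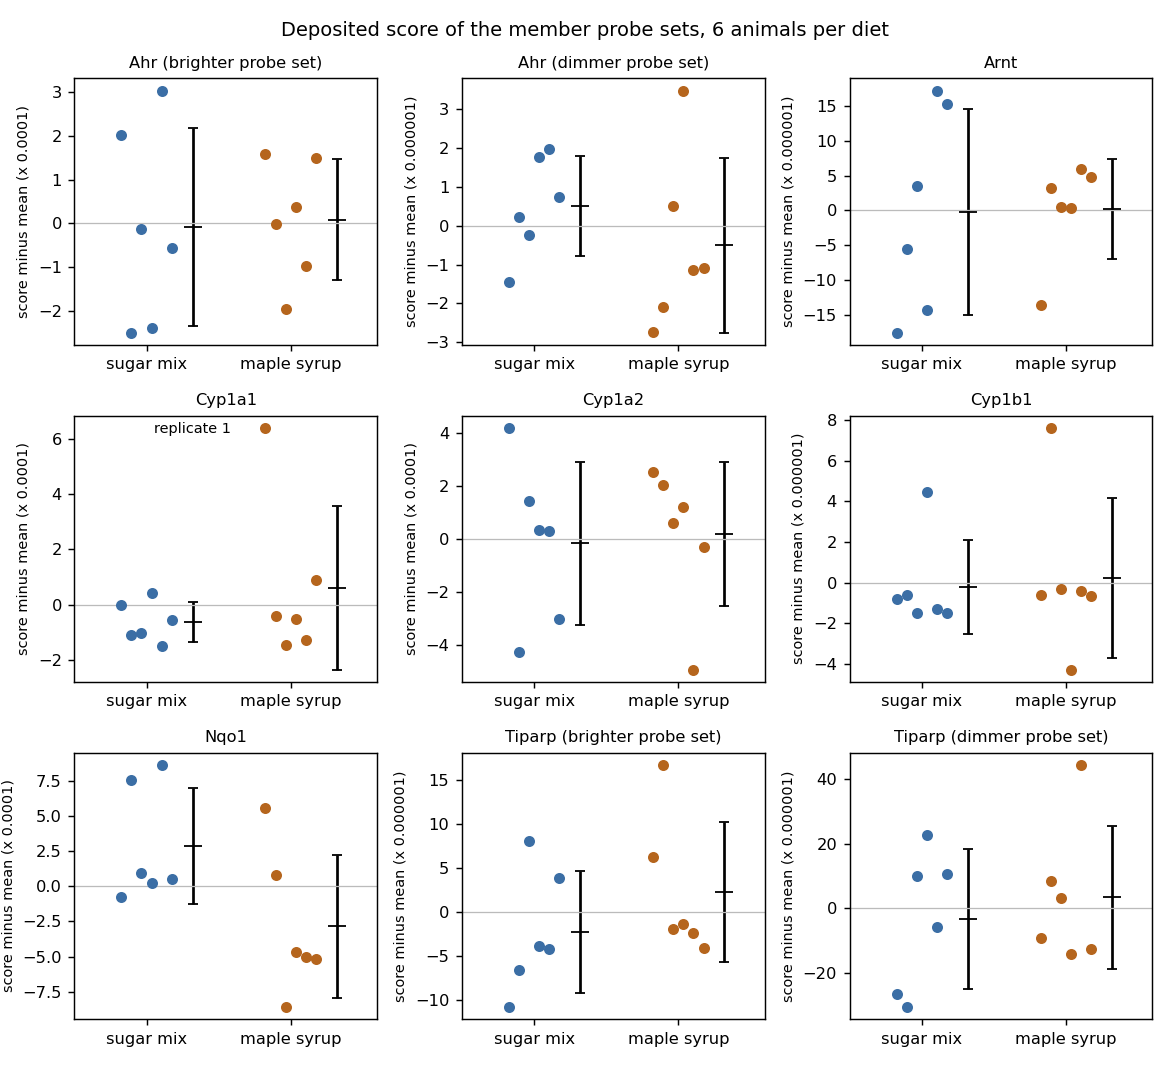
Deposited score of each member probe set minus its mean over 12 animals, by diet; the vertical axes are in units of 0.0001 or 0.000001 score as labelled, points are animals in order of replicate number, and bars are the diet mean and SD (n = 6). The diets overlap in every panel, and maple syrup replicate 1 stands far above the other 11 animals for Cyp1a1.

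Ahr, the receptor itself, was measured by 2 probe sets with unlike behaviour. The brighter one (1369146_a_at) had a mean score of 8.0362 and an SD of 0.000178, larger than in 94.4% of probe sets, while the dimmer one (1369147_at) had a mean of 6.9109 and an SD of 1.82e-06, at percentile 9.6. Their SDs differed by a factor of 97.9, and their values did not run together over the 12 animals (Pearson r = -0.18, permutation p = 0.564; Spearman rho = -0.20, permutation p = 0.526; r = -0.48 without the 2 animals farthest from the median).

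In the brighter Ahr probe set the score with maple syrup ran from 8.03602 through a median of 8.03624 to 8.03638. With sugar mix it ran from 8.03597 through 8.03619 to 8.03652. The maple syrup animals lay inside the span of the sugar mix animals, and g was 0.08 (95% interval -0.96 to 1.13). Maple syrup was higher in 20 of the 36 pairs made of 1 rat of each diet. For the dimmer probe set g was -0.51 (95% interval -1.56 to 0.57), with maple syrup higher in 11 of 36 pairs; without maple syrup replicate 4, its highest animal, g was -1.31 (95% interval -2.52 to -0.04), and the adjusted p stayed above the threshold. The direction of the brighter probe set was not stable: without maple syrup replicate 1 its g was -0.06.

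Arnt (1369244_at), the partner through which the receptor binds DNA, had a mean score of 7.4460 and an SD of 1.11e-05. Its score with maple syrup ran from 7.445978 through a median of 7.445993 to 7.445997, and with sugar mix from 7.445974 through 7.445990 to 7.446009. The diet means were nearly the same (g = 0.03, 95% interval -1.01 to 1.08; -0.27 to 0.34 with 1 animal left out), and the spread was wider with sugar mix (SD 1.48e-05) than with maple syrup (SD 7.14e-06), a difference that was not tested. In the maple syrup group replicate 1 stood apart below the other 5, at -1.23 SD. In this group 5.22% of probe sets had 1 animal that stood apart, above or below.

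Cyp1a1 (1370269_at), a monooxygenase of aromatic hydrocarbons, is the classical readout of the receptor. Its mean score was 6.7414, a low level: the lowest array median was 7.36619, and Cyp1a1 was among the lowest 30% of named probe sets. In the sugar mix group the score ran from 6.74127 through a median of 6.74134 to 6.74147. With maple syrup, replicates 2 to 6 scored 6.74138, 6.74128, 6.74137, 6.74129 and 6.74151, and replicate 1 scored 6.74206. That animal lay 0.000549 above the next highest of the 12, a gap 2.31 times the whole range of the other 11 (0.000237). It was 2.98 SD above the mean of all 12, or 8.95 SD above the mean of the other 11 when their SD is the unit.

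No other named probe set placed this animal as far above the mean in SDs as Cyp1a1 did (1 of 20826, 0.00480%, Cyp1a1 itself). The animal was not high across the array: it was the highest of 12 in 6.66% of probe sets, where the 12 animals ranged from 6.28% to 10.5%. It stood apart above the other 5 maple syrup animals in 0.408% of probe sets. Because the animal was picked for its Cyp1a1 value, these are descriptions and carry no test.

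The diet difference of Cyp1a1 rested on that rat. With all 12 animals g was 0.53 (95% interval -0.56 to 1.58), with maple syrup higher in 22 of 36 pairs and an exact permutation p of 0.452, two-sided. Without replicate 1 g was 0.08 (95% interval -1.01 to 1.16), with maple syrup higher in 16 of 30 pairs. The moderated t in limma was 1.02 with all animals and 0.14 without this one.

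Cyp1a2 (1387243_at), which lies beside Cyp1a1 on the same chromosome with 0 protein-coding genes between them in RefSeq, encodes a constitutive monooxygenase that metabolises caffeine. Its mean score was 12.3947, and its SD of 0.000276 was larger than in 95.8% of probe sets. With maple syrup the score ran from 12.39422 through a median of 12.39480 to 12.39497, and with sugar mix from 12.39429 through 12.39475 to 12.39513. The highest animal was sugar mix replicate 1, at 1.52 SD, and the lowest was maple syrup replicate 5, at -1.79 SD. The diets overlapped almost fully (g = 0.11, 95% interval -0.93 to 1.16; maple syrup higher in 20 of 36 pairs). With 1 animal left out g ran from -0.16 to 0.52, and it was -0.03 without maple syrup replicate 1.

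Cyp1b1 (1368990_at) encodes a related monooxygenase of estradiol and aromatic hydrocarbons that in liver is known mainly from cells other than hepatocytes. Its mean score was 7.0337 and its SD was 3.08e-06, at percentile 21.0 of all probe sets. Most animals were nearly alike and a few stood out: with maple syrup, replicate 2 was at 2.47 SD and replicate 4 at -1.39 SD, and with sugar mix, replicate 4 was at 1.44 SD. Replicate 2 of maple syrup and replicate 4 of sugar mix stood apart above the rest of their diets. Over all probe sets 1 animal stood apart, above or below, in 5.22% with maple syrup and 5.02% with sugar mix. The other maple syrup animals were between -0.21 and -0.11 SD, and the other sugar mix animals between -0.49 and -0.20 SD. The g was 0.12 (95% interval -0.92 to 1.17), and without maple syrup replicate 2 it turned to -0.46 (95% interval -1.56 to 0.65). The mean over 7 stellate cell and fibroblast markers, each by its brightest probe set, ran from -1.58 to 0.77 SD with maple syrup and from -0.84 to 0.73 SD with sugar mix; their part in Cyp1b1 was not tested.

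Nqo1 (1387599_a_at) encodes a quinone reductase that both the receptor and the oxidative stress factor NRF2 induce. It had the widest spread of the members (SD 0.000533, percentile 97.2) and the g farthest from 0. With maple syrup the score ran from 8.52218 through a median of 8.52255 to 8.52359, and with sugar mix from 8.52296 through 8.52311 to 8.52390. The 4 lowest of the 12 animals were maple syrup replicates 3 to 6, all below every sugar mix animal, while replicates 1 and 2 lay among the sugar mix animals. The g was -1.14 (95% interval -2.27 to 0.04), and maple syrup was higher in 7 of 36 pairs. This did not pass: the unadjusted p in limma was 0.0506, its adjusted p rounds to 1, and the exact permutation p was 0.0714, two-sided.

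Maple syrup replicate 1, the animal with the high Cyp1a1, had the highest Nqo1 of its diet, at 1.04 SD. Without it the g of Nqo1 was -1.77 (95% interval -3.09 to -0.39), with maple syrup higher in 3 of 30 pairs. The unadjusted p in limma was then 0.00808, with an adjusted p of 0.998, so the call over all probe sets did not change. Leaving out any other animal gave a g between -1.25 and -0.94.

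Most probe sets of other genes known as NRF2 targets had the opposite sign to Nqo1. Of 13 probe sets of 8 such genes, 10 had g above 0 (background 48.7%) and 3 below, with a median of 0.59 against -0.02 over the table. After adjustment 0 passed limma (background 0%), and 5 had an unadjusted p under 0.05 in limma (background 4.19%). Me1, the cytosolic malic enzyme, had g = 1.32 (95% interval 0.11 to 2.49). Gclm, a subunit of the enzyme that starts glutathione synthesis, had g = 1.17 (95% interval -0.02 to 2.30), and Srxn1, which repairs oxidised peroxiredoxins, had g = -1.32 (95% interval -2.48 to -0.10). These genes were named after their values were seen.

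Tiparp encodes a mono-ADP-ribosyltransferase that is induced by the receptor and represses it. Its brighter probe set (1374446_at) had a mean score of 8.5569 and an SD of 7.51e-06. With maple syrup it ran from 8.556852 through a median of 8.556855 to 8.556873, and with sugar mix from 8.556845 through 8.556852 to 8.556864. Replicate 2 of the maple syrup group was the highest animal, at 2.23 SD, and the other 5 lay within the span of the sugar mix group. The g was 0.55 (95% interval -0.53 to 1.61), with maple syrup higher in 26 of 36 pairs.

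The dimmer Tiparp probe set (1385407_at) had a mean score of 7.4782 and g = 0.28 (95% interval -0.78 to 1.32). Its highest animal was another one, maple syrup replicate 5, at 2.10 SD, without which g was -0.08. Over the 12 animals the probe sets of Tiparp had r = 0.34 (permutation p = 0.278) and rho = 0.46 (permutation p = 0.134), with r = 0.33 without the 2 animals farthest from the median. The animal that was highest for the brighter Tiparp probe set, maple syrup replicate 2, was also the highest for Cyp1b1.

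**Figure D2:**
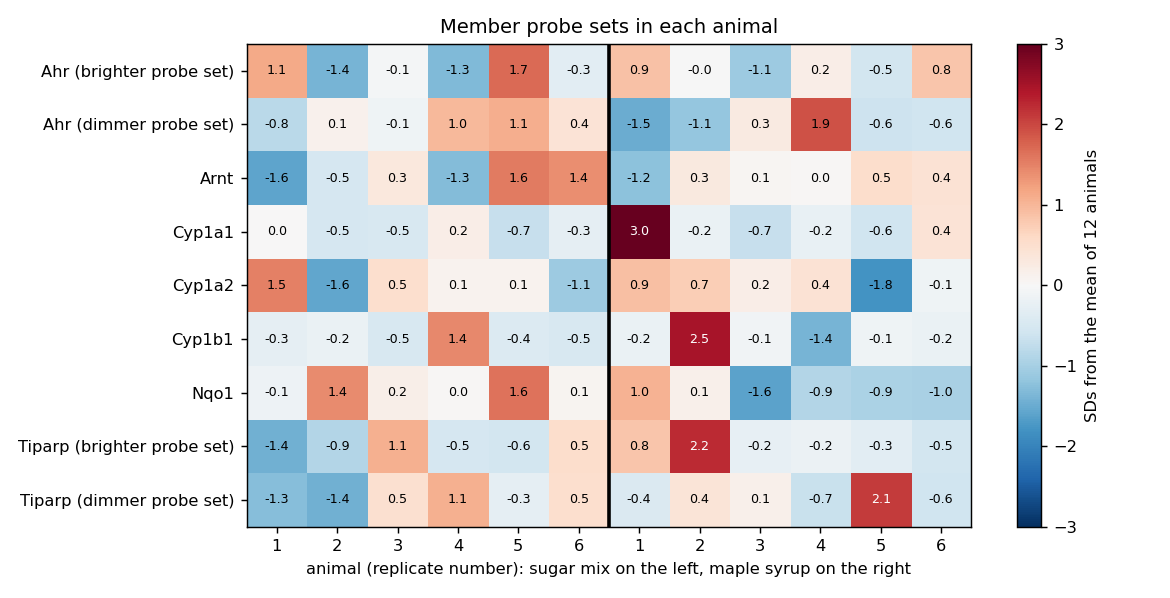
Each member probe set (rows) in each animal (columns, by replicate number, sugar mix on the left), in SDs from the mean of that probe set over the 12 animals. Maple syrup replicate 1 is at 2.98 SD for Cyp1a1 and between -1.50 and 1.04 SD for the other 8 probe sets, none of which has its maximum there.

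The next question was whether the other targets were high in the rat with the high Cyp1a1. They stood out far less. Of the 8 other member probe sets, 0 had that animal highest of the 12 (background 6.66%), and 3 had it highest of the 6 maple syrup animals (background 16.3%): Nqo1 at 1.04 SD, Cyp1a2 at 0.91 SD and the brighter Ahr probe set at 0.89 SD. Among the 5 other target probe sets it was above the mean in 3 (background 51.7%), namely Cyp1a2, Nqo1 and the brighter Tiparp probe set at 0.84 SD. The dimmer Tiparp probe set was at -0.43 SD and Cyp1b1 at -0.20 SD. Arnt, at -1.23 SD, ranked 10 of the 12, and the dimmer Ahr probe set, at -1.50 SD, ranked 12.

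The 4 probe sets with this animal highest in its diet, Cyp1a1, Cyp1a2, Nqo1 and the brighter Ahr probe set, were also the 4 members with an SD in the top 10% of the table. Over all 2083 probe sets in that top 10% the animal was highest of the maple syrup group in 16.4%, against 16.3% over all probe sets, and highest of the 12 in 5.95%. Averaged over each list by the brightest probe set of each gene, the same animal was also highest of the 12 for the other reported targets of the receptor (0.38 SD; sugar mix -0.09 to 0.23 SD) and for NRF2 targets (0.76 SD; sugar mix -0.48 to -0.09 SD), and it ranked 3 of 12 for the receptor complex (0.21 SD). For the members themselves, Cyp1a1 included, it ranked 2 of 12 at 0.75 SD, below another maple syrup animal at 0.81 SD. For markers of hepatocytes and of pericentral hepatocytes it ranked 9 of 12, at -0.24 and -0.32 SD. These list means are a description of an animal picked for Cyp1a1. Markers of Kupffer cells and macrophages were on average highest of the 12 in the same animal, at 0.77 SD, where the other maple syrup animals went down to -1.41 SD and the sugar mix animals ran from -0.26 to 0.75 SD. This list held 6 of 7 genes written, and 1 of its 6 probe sets had the animal highest of the 12. The part of these cells in the Cyp1a1 value was not tested.

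Across the 12 animals no relation of a member to Cyp1a1 passed the test. Relations to all 20825 other probe sets were computed, with p from 100000 permutations of the animals and Benjamini-Hochberg adjustment over all of them; 0 passed by Pearson r or by Spearman rho (background 0% for each), and every member had an adjusted p of 1. Before adjustment 3.31% of probe sets had a permutation p under 0.05 by r and 4.63% by rho, and no member did. Arnt had r = -0.50 (permutation p = 0.0974) and rho = -0.53 (permutation p = 0.0792). The dimmer Ahr probe set had r = -0.49 (permutation p = 0.104). Cyp1a2 had r = 0.37 (permutation p = 0.259) and rho = 0.46 (permutation p = 0.134).

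Without the outlying rat alone, r was -0.43 for Arnt. Without maple syrup replicates 1 and 6, the 2 animals farthest from the median of Cyp1a1, r was -0.65 for Arnt (permutation p = 0.0448 before adjustment, with 8 probe sets tried) and 0.42 for Cyp1a2 (permutation p = 0.23). That of the dimmer Ahr probe set was -0.00 without them, so it rested on those animals. Cyp1b1, Nqo1 and the Tiparp probe sets had r between -0.19 and 0.24 over the 12 animals, and permutation p from 0.481 to 0.888.

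Within the diets the r of Nqo1 with Cyp1a1 had opposite signs. Over the 6 maple syrup animals r was 0.83 (exact permutation p = 0.0444) and rho 0.66, and over the 6 sugar mix animals r was -0.78 (exact permutation p = 0.075) and rho -0.94. The pooled r was 0.24 (permutation p = 0.483), and over the 11 animals without maple syrup replicate 1 it was -0.22. The p values are before adjustment, 8 probe sets were tried in each diet, the maple syrup value includes replicate 1, and the difference between the diets was not tested. The brighter Ahr probe set had r = 0.74 with maple syrup (exact permutation p = 0.0597) and -0.33 with sugar mix (exact permutation p = 0.5). Its rho was 0.94 with maple syrup and -0.26 with sugar mix, where the dimmer Ahr probe set had -0.60 and -0.26. No p was computed for rho within the diets. For Cyp1a2 r was 0.48 (exact permutation p = 0.239) and 0.36 (exact permutation p = 0.496), the same sign in each diet, and for Arnt it was -0.88 (exact permutation p = 0.115) and -0.73 (exact permutation p = 0.11). By rank, Arnt had rho = -0.31 with maple syrup and -0.71 with sugar mix; maple syrup replicate 1 stood apart for both genes and is part of the r of -0.88.

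**Figure D3:**
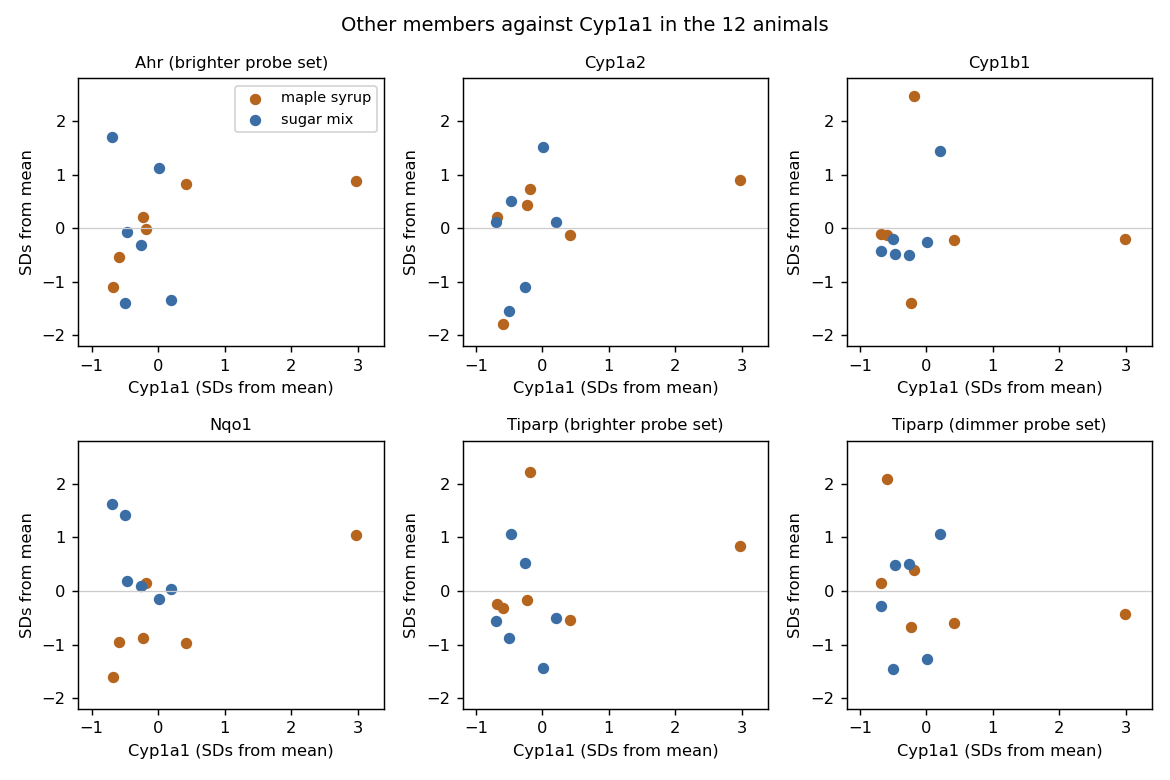
Scores of 6 member probe sets against Cyp1a1 in the 12 animals, both axes in SDs from the mean of that probe set; colours mark the diets. The point at 2.98 on the horizontal axis is maple syrup replicate 1. For Nqo1, r was 0.83 over the 6 maple syrup points, replicate 1 included, and -0.78 over the 6 sugar mix points. Over the 11 animals without replicate 1 it was -0.22.

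The 5 genes whose pattern over the 12 animals was most like that of Cyp1a1, by Pearson r, were She, Elmod3, Mgarp, Sertm1 and Plaur. She, an adaptor protein gene, had r = 0.88 and rho = 0.80. Elmod3 had r = 0.86 and rho = 0.87, and Mgarp, a mitochondrial protein gene, had r = 0.85 and rho = 0.57. Sertm1 and Plaur, the urokinase receptor, each had r = 0.82, with rho = 0.75 and 0.57. They were picked as the highest of 20825, so these values are a description, and all 5 had maple syrup replicate 1 highest of the 12, at 2.06 to 2.58 SD. Without the 2 animals farthest from the median of Cyp1a1 their r fell to between 0.22 (Plaur) and 0.71 (Sertm1). Their mean scores ran from 6.3221 (Sertm1) to 7.7073 (Elmod3). Their SDs were far smaller than that of Cyp1a1 (0.000215), from 2.19e-06 (Sertm1) to 1.59e-05 (She).

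No probe set of the table was called between the diets, those of other pathway genes included. The receptor complex list, Ahr and Arnt included, had 8 of 10 genes measured, by 13 probe sets. In limma 0 passed after adjustment (background 0%) and 0 had an unadjusted p under 0.05 (background 4.19%). In 9 of the 13 g was above 0 (background 48.7%), and the median g was 0.04, against -0.02 over the table. Ahrr, the repressor that is itself a target, had g = 0.36 (95% interval -0.70 to 1.41). Ptges3, with a narrow spread (SD 2.87e-06, percentile 19.2), had g = -0.26 (95% interval -1.30 to 0.80). It was highest of the 12 in maple syrup replicate 1, at 1.90 SD.

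Of 14 other genes reported as targets of the receptor, 12 were measured by 13 probe sets. In limma 0 passed after adjustment (background 0%) and 1 had an unadjusted p under 0.05 (background 4.19%). Of the 13, 6 had g above 0 (background 48.7%) and 7 below, with a median of -0.04. Xdh, which forms uric acid, had g = -1.30 (95% interval -2.46 to -0.09), with maple syrup higher in 6 of 36 pairs and an exact permutation p of 0.026 before adjustment. Inmt, a methyltransferase of indoles, had g = 1.05 (95% interval -0.11 to 2.16), with maple syrup higher in 30 of 36 pairs. Aldh3a1, an aldehyde dehydrogenase that the receptor induces strongly, had a mean score of 6.91 and an SD of 2.6e-06, at percentile 16.6. Its g was -0.48 (95% interval -1.53 to 0.60). In the animal with the high Cyp1a1 this low and narrowly spread probe set was at -1.11 SD, rank 11 of 12.

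Of the 13 probe sets of this list, 4 had maple syrup replicate 1 as the highest of the 12 animals (background 6.66%). They were Htatip2 at 1.61 SD, Cd36, a fatty acid carrier, at 1.53 SD, Cyp2s1, another monooxygenase, at 1.19 SD, and Fgf21, a hormone of fasting, at 1.17 SD. Their g lay between -0.09 (Fgf21) and 0.23 (Cd36), and every interval included 0. Of the probe sets of NRF2 targets, 4 of 13 also had this animal highest, among them Hmox1, the heme oxygenase, at 2.17 SD and Txnrd1 at 1.50 SD. These counts were not tested, since the animal was picked for Cyp1a1 and probe sets of 1 animal share its RNA.

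**Figure D4:**
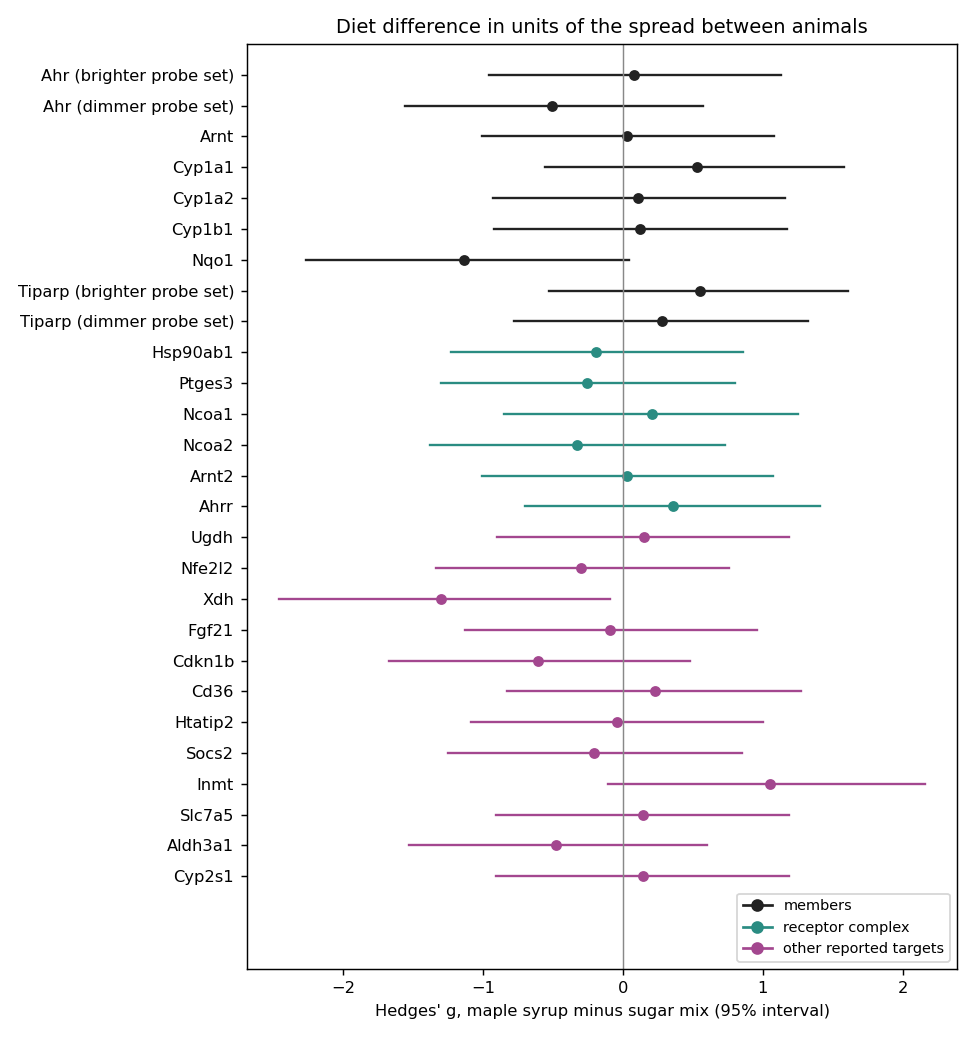
Hedges' g (points) and its 95% interval (lines) for maple syrup minus sugar mix, for the 9 member probe sets, the other genes of the receptor complex and other reported targets, each gene of the latter lists by its brightest probe set. All intervals include 0 except that of Xdh (-2.46 to -0.09), and Nqo1 has the member estimate farthest from 0 (-1.14).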

How the data were processed

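Total RNA of each liver (2 ug) was made into biotin-labelled cRNA and hybridised to 1 array, per the labels' protocols. The deposited table holds the authors' processed score for 31099 probe sets; how signals were summarized and normalized is not given in the sources used here. The labels name the samples as biological replicates and give no batch.

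Probe sets were named by the platform annotation, with symbols checked against RefSeq; 436 with several symbols and 57 controls were left out. The score was used as deposited, with no filter. The diet test was limma (version 3.58.1, R 4.3.3; two-sided, eBayes with an intensity trend), adjusted over 20826 probe sets at 0.05, and with exact permutation over all 924 arrangements (smallest p 0.0022). Intervals of g used the noncentral t distribution. An animal stood apart when its gap to the nearest of its diet, divided by the range of that diet, exceeded Dixon's critical value (0.625). The design had assumed adjustment of the Cyp1a1 relations over the members; all probe sets were used instead. Named genes were the members, any listed gene called, genes of the receptor complex and other target lists with g beyond 1 or highest in the animal highest for Cyp1a1 (brightest probe set), and the 5 patterns most like Cyp1a1; Ahrr, Aldh3a1, NRF2 targets and cell markers were named outside this rule, after their values were seen. Lists and members were chosen with earlier results of these data known. Alternatives were other normalizations, filters, variance models, the replicate block and each array left out. The scripts were tested on simulated data. Figures used matplotlib 3.10.9.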

Additional observations from a re-analysis of the deposited data

Results flagged for a closer look

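For the members, the 7 listed genes named by the rule and the 5 genes most like Cyp1a1, there were 42 combinations of a diet and a probe set. In 7 of them 1 animal was set far off the rest of its group. Chance gives about 1 in 20, but the count cannot be read against it, since Cyp1a1 was described for its outlying animal and other genes were picked for their likeness to it or for being highest in that animal. Values are in SDs from the mean of 12 animals. In the maple syrup group, replicate 1 was at 2.98 for Cyp1a1, at -1.23 for Arnt and at 2.58 for Mgarp, and replicate 2 was at 2.47 for Cyp1b1. In the sugar mix group, replicate 4 was at 1.44 for Cyp1b1 and at 1.48 for Sertm1, and replicate 5 was at -1.22 for She. Over all named probe sets 5.22% had such an animal with maple syrup and 5.02% with sugar mix. Of the 18 combinations of a diet and a member probe set, 4 had one.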

How the results depend on the processing

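The count of called probe sets was 0 under all 24 settings, with 90 (array medians centred) to 1148 (without sugar mix replicate 6) probe sets at an unadjusted p under 0.05 in limma, against 873 as deposited. No member passed in any of 201 alternatives (smallest adjusted p 0.897), and the direction changed in 19. Under quantile normalization the moderated t was -0.02 for Arnt and -0.35 for the brighter Tiparp probe set, and Cyp1a2 became constant; with array medians centred it was 0.25 for the dimmer Ahr probe set. Leaving out 1 array gave a moderated t of -0.30 to 0.84 for the brighter and -2.10 to -0.51 for the dimmer Ahr probe set, -0.50 to 0.64 for Arnt, 0.14 to 1.31 for Cyp1a1, -0.30 to 0.98 for Cyp1a2, -0.81 to 0.77 for Cyp1b1, -3.32 to -1.77 for Nqo1, 0.45 to 1.58 for the brighter and -0.15 to 0.96 for the dimmer Tiparp probe set. The cause of these changes was not tested.

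Same-numbered animals of the diets share only a number (correlation of deviations -0.0403 to 0.118, and 0 of 6 correlated best with their own number); with the replicate block the count stayed 0 and t was -2.22 for Nqo1 and 1.20 for Cyp1a1. Filters on low levels left out Cyp1a1, Cyp1b1 and the dimmer Ahr probe set, and 1 probe set per gene left out the dimmer ones. Scaling each probe set to its own SD was added after seeing the data.

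For the relation to Cyp1a1, r without the 2 farthest animals became -0.07 for the brighter Ahr probe set, -0.05 for Nqo1, -0.02 for the brighter Tiparp probe set and -0.65 for Arnt. Within sugar mix it was -0.33, -0.78 and -0.28 for the first 3 of these and 0.29 for the dimmer Tiparp probe set. Within maple syrup it was -0.09 for Cyp1b1 and 0.83 for Nqo1. Over all 12 animals rho was -0.10 for Nqo1.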

Other observations

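Pericentral hepatocytes, the zone where Cyp1a2 is known to be made, had 8 of 9 markers measured by 15 probe sets. In limma 0 passed (background 0%), 9 had g above 0 (48.7% of all probe sets did), and the median g was 0.16, which turned to -0.03 with 1 probe set per gene. Axin2, a Wnt target, had g = 1.10 (95% interval -0.07 to 2.23), and Cyp2e1 had g = -0.16. Averaged over the list by the brightest probe set of each gene, maple syrup replicate 1 was at -0.32 SD, rank 9 of 12. Axin2 had its highest value of the 12 in that animal, at 1.25 SD, and Lgr5 was at -1.17 SD there. These genes were chosen after their values were seen.

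Markers of other cells had 0 probe sets called in limma (background 0%). The median g was -0.33 for hepatocytes (-0.12 with 1 probe set per gene), -0.47 for Kupffer cells and macrophages, 0.11 for sinusoidal endothelium, -0.07 for stellate cells and fibroblasts, -0.19 for cholangiocytes, -0.47 for enterocytes, -0.53 for pancreatic acinar cells and 0.21 for erythroid cells, against -0.02 over all probe sets. Acta2, of stellate cells, had g = -1.35 (95% interval -2.52 to -0.13), and Csf1r, of macrophages, had g = -1.02 (95% interval -2.13 to 0.13). Of the 9 probe sets of stellate cells and fibroblasts, 3 had g above 0 (background 48.7%) and 6 below. Of the 6 of Kupffer cells and macrophages, 1 had g above 0 (the same background) and 5 below. Cd163, of macrophages, was highest of the 12 animals in maple syrup replicate 1, at 1.20 SD. Acta2, Csf1r and Cd163 were named after their values were seen. Averaged over each list, maple syrup replicate 1 was at 0.05 SD for enterocytes, -0.47 SD for acinar cells and -0.86 SD, rank 12, for cholangiocytes.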
